A study of Mus musculus with 4 samples.

Results

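The nuclear genes of oxidative phosphorylation were followed in RNA sequenced in bulk from the dorsal root ganglia of mice, the clusters of sensory neuron cell bodies beside the spinal cord. Members were all genes of the deposited matrix whose symbol begins with Nduf followed by a, b, c, s or v, with Cox4 to Cox8, with Uqcr or with Atp5, or is Sdha, Sdhb, Sdhc or Sdhd. That rule found 91 of 14405 genes. The wild type group had 2 libraries. The mutant group, also 2 libraries, had the genotype Prdm12-/Fl; AvilCreERT2/+, in which 1 allele of Prdm12 is null, the other is floxed, and Avil, a gene of sensory neurons, drives a Cre recombinase that tamoxifen switches on. All samples were labelled as mixed strain and 10 weeks old. The labels do not give the tamoxifen treatment, and do not say whether the wild type animals carried the Cre or whether each library came from a separate animal. The p-values therefore cover no more than the spread among these libraries, which may be technical in part, and in the mutants wholly. Cre driven by Avil acts in sensory neurons, while whole ganglia also hold glia, vessels and connective tissue. In such bulk samples fewer cells of a type and less RNA per cell cannot be told apart.

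Oxidative phosphorylation makes most of the ATP of a neuron or a muscle fibre. Complex I (NADH dehydrogenase) and complex II (succinate dehydrogenase) pass electrons to ubiquinone, complex III passes them to cytochrome c, complex IV (cytochrome c oxidase) passes them to oxygen, and complex V (ATP synthase) uses the resulting proton gradient to make ATP. Several small subunits of complex IV exist as isoforms. Cox6a2, Cox7a1 and Cox8b are the forms of heart and skeletal muscle, Cox7a1 and Cox8b are also made in brown fat, and Cox6a1, Cox7a2 and Cox8a are their counterparts in most other tissues. The subunits encoded by the mitochondrial genome were not analysed here.

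By role, the 91 members were 36 subunits of complex I, 7 complex I assembly factors (Ndufaf genes), 4 subunits of complex II, 8 of complex III, 12 ubiquitous genes of complex IV, 17 Atp5 genes and 7 tissue-restricted isoforms. Ndufa4 was placed with complex IV, where its protein belongs despite the name. Cox7a2l, a factor of respiratory supercomplexes, and Atp5s and Atp5sl, which RefSeq now calls Dmac2l and Dmac2, entered by their names. Atp5s and Atp5sl stood apart from the ATP synthase subunits, at 13.0 to 14.1 and 16.3 to 19.6 FPKM. All 91 passed the minimum for testing, a mean of at least 1 FPKM (sequenced fragments per length of transcript and per depth of library) in either group.

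The libraries differed in markers of other cell types, some of them across the groups and some along them. FPKM totals ran from 620018 to 686830. Of 27 skeletal muscle markers 25 were in the matrix, with a summed level of 476 and 3228 FPKM in wild type 1 and 2 and of 217 and 6204 FPKM in mutant 1 and 2, and 0 of them were at 0 in any library. Summed levels in the same order were 7.94, 70.8, 8.28 and 125 FPKM for 4 brown adipocyte markers, 492, 772, 284 and 2360 FPKM for 8 adipocyte markers and 4140, 5782, 4484 and 7528 FPKM for 11 pan-neuronal markers. They were 10363, 8277, 10222 and 21355 FPKM for 10 markers of myelinating Schwann cells. All 10 had a positive log2 difference and 5 had both mutants above both wild types, beside 49.1% and 12.5% of all genes tested. Erythrocyte markers followed the groups, and the 4 in the matrix summed to 2921, 2824, 5554 and 5763 FPKM. In 4 of 4 each mutant lay above each wild type, beside 12.5% of all genes tested. Their median log2 difference was 0.87. Each was higher at an unadjusted limma p under 0.05, beside 1.35% of all genes tested (smallest adjusted p = 0.455). The 10 sensory neuron markers, all present, summed to between 1748 and 2145 FPKM, of which Calca alone gave 1547 to 1861 FPKM. Their median ratio was 1.35 for wild type 2 over wild type 1 and 1.41 for mutant 2 over mutant 1. Satellite glia markers summed to between 5362 and 6469 FPKM, and the 3 spinal cord markers in the matrix to between 15.4 and 17.9 FPKM. Xist reached 21.1 FPKM in wild type 2 but at most 0.0295 FPKM in the other 3. The Y-linked gene Eif2s3y fell to 0.0252 FPKM there, beside 21.3 (wild type 1), 24.7 (mutant 1) and 23.2 FPKM (mutant 2). Ddx3y, also Y-linked, gave 0 FPKM there, beside 18.4, 16.8 and 11.3 FPKM in those libraries. By these genes wild type 2 had a female pattern and the other 3 a male pattern, so the 2 wild type libraries were not from the same animal. Sex was thus unbalanced between the groups, and its part in the differences was not tested. Prdm12 was at 7.58 and 10.7 FPKM in the wild types against 1.05 and 1.50 FPKM in the mutants (log2 difference -2.14, limma adjusted p = 0.180).

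The promoters of 2 muscle isoforms and of their ubiquitous counterparts are shown because these pairs carry the main contrast among the members. RefSeq windows of 300 bases (250 before and 50 after the annotated start, GRCm38.p6) matched 76 of the 91 members, 3 of them by an older symbol. Each is written 5′ to 3′ on the gene's strand in lower case. Capitals mark any match, on either strand, to 5 motifs: the NRF1 motif (GCGCA, any base, then GCGC), the ETS motif CCGGAAG bound by GABP, the YY1 motif AAGATGGC, the E-box CANNTG bound by myogenic factors among others, and the MEF2 motif. NRF1, GABP and YY1 are known regulators of respiratory chain genes.
Cox7a1 (chr7:30183921-30184220, plus strand): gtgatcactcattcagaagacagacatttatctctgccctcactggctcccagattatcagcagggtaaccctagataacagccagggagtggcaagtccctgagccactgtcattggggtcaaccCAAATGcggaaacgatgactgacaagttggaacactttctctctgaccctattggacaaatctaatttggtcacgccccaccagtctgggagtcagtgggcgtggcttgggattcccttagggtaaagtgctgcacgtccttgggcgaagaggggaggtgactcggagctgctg
Cox8b (chr7:140900397-140900696, minus strand): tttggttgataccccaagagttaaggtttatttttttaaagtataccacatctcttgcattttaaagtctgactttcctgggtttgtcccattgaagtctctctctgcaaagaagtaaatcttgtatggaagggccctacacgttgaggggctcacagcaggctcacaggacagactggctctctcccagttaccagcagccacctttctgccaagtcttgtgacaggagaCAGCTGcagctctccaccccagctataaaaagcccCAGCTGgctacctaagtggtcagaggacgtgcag
Cox7a2 (chr9:79759804-79760103, minus strand): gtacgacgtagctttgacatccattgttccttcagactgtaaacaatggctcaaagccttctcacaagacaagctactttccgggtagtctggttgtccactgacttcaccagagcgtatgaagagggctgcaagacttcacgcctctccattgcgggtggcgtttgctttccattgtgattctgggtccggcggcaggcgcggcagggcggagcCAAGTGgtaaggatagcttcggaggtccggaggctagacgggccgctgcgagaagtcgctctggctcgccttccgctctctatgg
Cox8a (chr19:7217567-7217866, minus strand): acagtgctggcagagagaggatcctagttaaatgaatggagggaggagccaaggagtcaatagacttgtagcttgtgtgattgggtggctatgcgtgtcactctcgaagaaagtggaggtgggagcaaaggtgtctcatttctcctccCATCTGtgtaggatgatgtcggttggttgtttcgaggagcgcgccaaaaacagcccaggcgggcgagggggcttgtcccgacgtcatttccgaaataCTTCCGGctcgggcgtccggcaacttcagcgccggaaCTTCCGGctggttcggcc

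In these windows the only matches were E-boxes, 1 in Cox7a1, 2 in Cox8b, 1 in Cox7a2 and 1 in Cox8a, and 2 ETS motifs in Cox8a. Over all windows of the members the NRF1 motif was in 20 of 82 (24.4%), against 8.97% of the 13594 windows of tested genes matched by symbol and 4.60% of all 32851 windows. The ETS motif was in 17 of the 82 (20.7%, against 15.5% of windows of tested genes and 8.86% of all) and the YY1 motif in 12 (14.6%, against 3.99% and 2.75%). The E-box was in 58 (70.7%, against 64.7% and 72.3%) and the MEF2 motif in 0 (against 0.383% and 0.557%). By class, the NRF1 motif was in 8 of 34 windows of complex I subunits, in 6 of 20 of Atp5 genes and in 1 of 10 of the ubiquitous complex IV genes. The 4 windows of tissue-restricted isoforms (Cox6b2, Cox7a1, Cox7b2 and Cox8b) held 0 NRF1, 0 ETS and 0 YY1 motifs. These counts describe letters in the windows and were not tested, and the windows of tested genes hold many promoters of other housekeeping genes.

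The ubiquitous members were among the abundant transcripts of the ganglion. All 91 members together made up 6.78% and 6.69% of the FPKM total in wild type 1 and 2 and 7.16% in each mutant. The median 4-sample mean was 325 FPKM over the members and 9.52 FPKM over all genes tested. Ubiquitous complex IV genes had the highest class median (939 FPKM), followed by complex III (661 FPKM), Atp5 genes (593 FPKM), complex I subunits (293 FPKM) and complex II (175 FPKM). Complex I assembly factors had a median of 18.7 FPKM. Subunits of 1 complex differed widely in transcript level. Within complex I the 4-sample mean ran from 31.5 FPKM for Ndufs5 to 1455 FPKM for Ndufb4, a membrane arm subunit, and within complex III from 145 FPKM for the Rieske iron-sulphur protein gene Uqcrfs1 to 1214 FPKM for Uqcrq. Shorter transcripts had higher FPKM: across the 89 members with a GENCODE M21 transcript length, Spearman's rho of length and level was -0.40, and across 13011 tested genes it was -0.31. Both quantities share the length scaling of FPKM, and genes are not independent replicates.

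**Figure D1:**
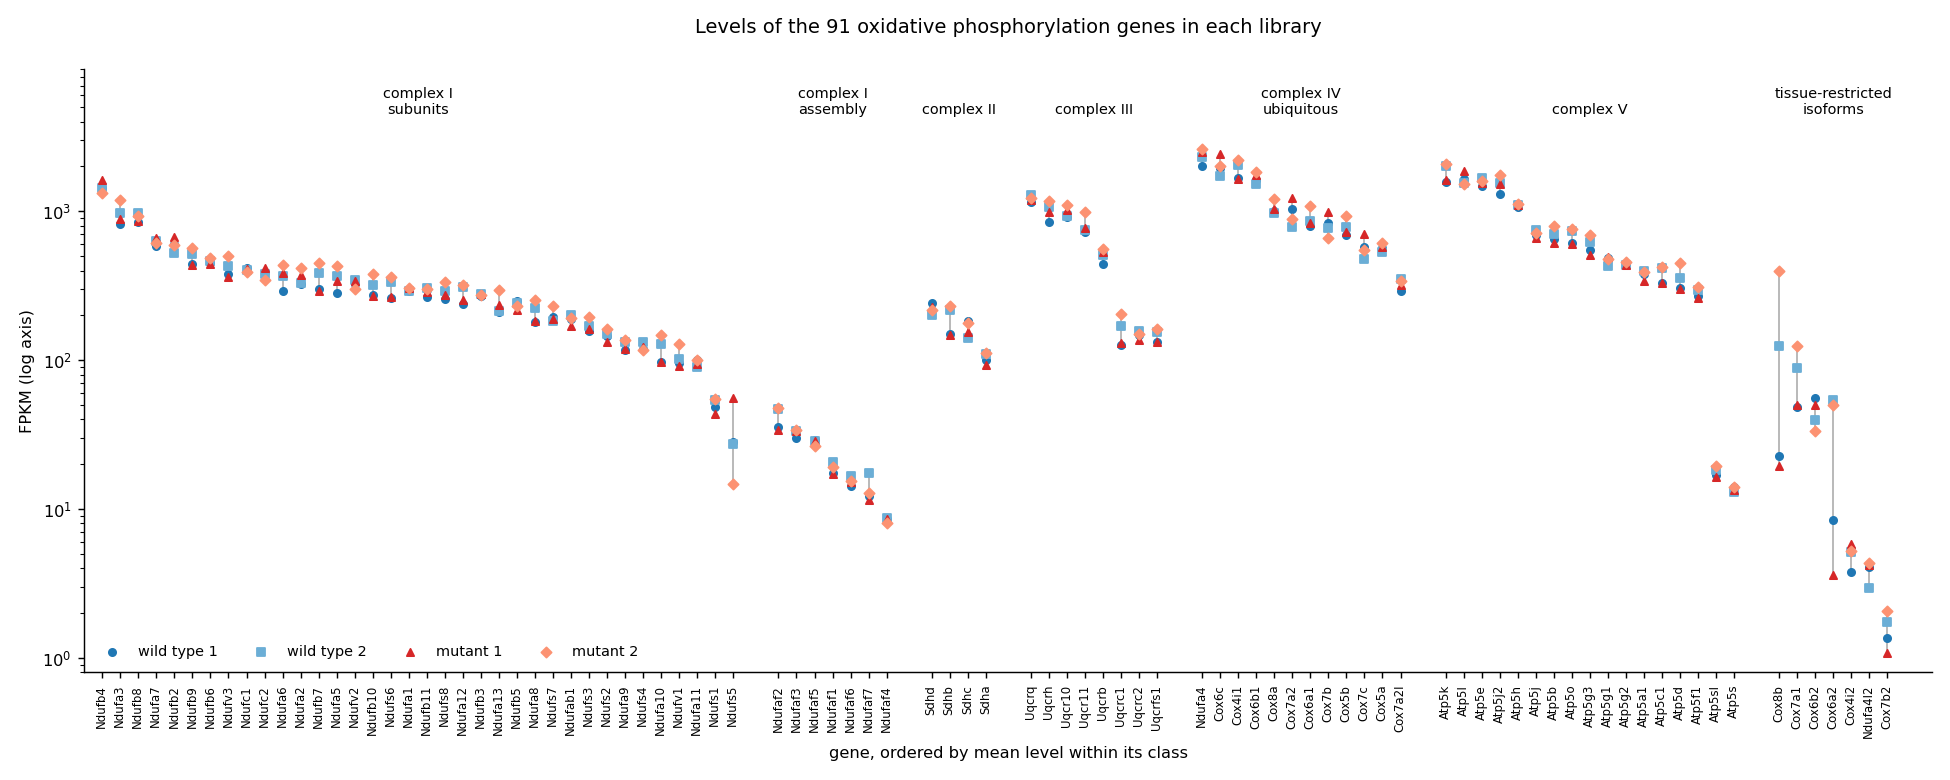
Level of each of the 91 genes in FPKM (vertical log axis) in wild type 1 and 2 (blue) and mutant 1 and 2 (red), by class and ordered by mean. Most points of a gene lie close together, while Cox8b spans 19.4 to 398 FPKM, Cox6a2 3.59 to 54.0 FPKM and Ndufs5 14.7 to 55.8 FPKM.

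Complex I and II genes had similar levels in the mutant and wild type libraries, within wide errors. Ndufs1, the largest iron-sulphur subunit of complex I, was at 48.2 and 53.7 FPKM in the wild types against 43.4 and 54.4 FPKM in the mutants. Ndufv1, which holds the flavin that accepts electrons from NADH, was at 95.3 and 102 FPKM in the wild types against 91.5 and 129 FPKM in the mutants. In both genes mutant 1 was the lowest library and mutant 2 the highest, so the groups overlapped. The most abundant complex I transcript, Ndufb4, was at 1431 and 1437 FPKM in the wild types against 1620 and 1334 FPKM in the mutants. Sdha, the flavoprotein of succinate dehydrogenase, was at 100 and 109 FPKM in the wild types against 92.8 and 112 FPKM in the mutants. Its iron-sulphur partner Sdhb was at 151 and 219 FPKM in the wild types against 147 and 232 FPKM in the mutants, so that wild type 2 and mutant 2 stood above the other 2. Sdhd, a membrane anchor, did not share that order, with 243 and 202 FPKM in the wild types against 229 and 218 FPKM in the mutants. The class medians of the log2 difference, mutant minus wild type on the log2(FPKM + 1) scale, were 0.06 for complex I subunits, 0.02 for complex II and -0.06 for complex I assembly factors, beside -0.0048 over all genes tested. The complex I median took a negative sign without mutant 2 (-0.016) or without wild type 1 (-0.0011).

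Within complex I a few accessory subunits had the largest differences. Ndufa6 was at 292 and 365 FPKM in the wild types against 388 and 437 FPKM in the mutants, 1.26-fold higher by the means (log2 difference 0.33, standard error 0.19, 95% interval -0.14 to 0.80). Ndufa13, also known as Grim19, was at 211 and 215 FPKM in the wild types against 234 and 295 FPKM in the mutants (log2 difference 0.30). Ndufa2 was at 323 and 328 FPKM in the wild types against 371 and 415 FPKM in the mutants (log2 difference 0.27). In each of these 3 both mutants lay above both wild types, with a gap between the nearest libraries of the groups that was smaller than the distance between the mutants. Ndufb5 was on the lower side, at 248 and 244 FPKM in the wild types against 218 and 230 FPKM in the mutants (log2 difference -0.13). So was the acyl carrier protein gene Ndufab1, at 188 and 202 FPKM in the wild types against 170 and 193 FPKM in the mutants, with overlap. The assembly factor gene Ndufaf7 was at 12.1 and 17.5 FPKM in the wild types against 11.4 and 12.9 FPKM in the mutants (log2 difference -0.25), also with overlap. None of these 6 passed the test (limma adjusted p = 0.994 for each).

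In complex III, 3 of the 8 genes had both mutants above both wild types, beside 12.5% of all genes tested, while its core subunits overlapped between the groups. Uqcr10, a small membrane subunit, was at 910 and 937 FPKM in the wild types against 1013 and 1099 FPKM in the mutants (log2 difference 0.19). Uqcr11 was at 725 and 752 FPKM in the wild types against 776 and 995 FPKM in the mutants (0.25). Uqcrb was at 440.3 and 509 FPKM in the wild types against 529 and 561 FPKM in the mutants (0.20). None of the 3 passed the test (limma adjusted p = 0.994 for each). Uqcrc1, a core protein of complex III, was at 127 and 170 FPKM in the wild types against 129 and 204 FPKM in the mutants, and Uqcrfs1 was at 133 and 155 FPKM in the wild types against 132 and 161 FPKM in the mutants. Uqcrq, the most abundant complex III transcript, was at 1151 and 1281 FPKM in the wild types against 1187 and 1238 FPKM in the mutants. In all 8 complex III genes wild type 2 was above wild type 1 and mutant 2 above mutant 1. Atp5a1 and Atp5b encode the alpha and beta subunits of the catalytic head of ATP synthase. Atp5a1 was at 377 and 399 FPKM in the wild types against 342 and 391 FPKM in the mutants, and Atp5b at 651 and 699 FPKM in the wild types against 616 and 792 FPKM in the mutants. Atp5k, a small membrane subunit with the highest level of the class, was at 1578 and 2006 FPKM in the wild types against 1628 and 2087 FPKM in the mutants. The class median of the log2 difference was 0.16 for complex III and 0.03 for Atp5 genes, and 0 of the 17 Atp5 genes separated the groups, beside 12.5% of all genes tested that did so on the higher side and 19.6% on the lower.

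The ubiquitous complex IV genes all had a positive log2 difference, from 0.01 for Cox7b to 0.27 for Cox6c, with a median of 0.18. In 5 of the 12 both mutants lay above both wild types, beside 12.5% of all genes tested. Ndufa4 was at 2023 and 2308 FPKM in the wild types against 2486 and 2627 FPKM in the mutants, and had the highest mean of all members. Cox6c was at 1950 and 1723 FPKM in the wild types against 2425 and 2012 FPKM in the mutants, and Cox6b1 at 1625 and 1528 FPKM in the wild types against 1751 and 1831 FPKM in the mutants. The others were Cox8a and Cox5a, a regulatory subunit that was at 568 and 534 FPKM in the wild types against 572 and 609 FPKM in the mutants. Cox4i1, which encodes the ubiquitous form of the largest nuclear subunit, overlapped between the groups, at 1666 and 2037 FPKM in the wild types against 1636 and 2225 FPKM in the mutants (log2 difference 0.05, 95% interval -0.52 to 0.62). The median was 0.084 after quantile normalization, and it was 0.12 with wild type 1 and mutant 1 alone. Cox4i1 and Cox7b took a negative sign after quantile normalization (-0.060 and -0.049).

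With limma 0 of the 91 members passed an adjusted p of 0.05, where 0 of 14040 genes did so (background 0.0%). At an unadjusted p under 0.05 there were also 0 of 91 members, beside 4.36% of all genes tested (1.35% higher and 3.01% lower), and the smallest p of a member was 0.131, for Ndufa6. With 2 libraries a group, an exact permutation test (two-sided) cannot give a p below 0.333. Both mutants lay above both wild types in 14 of 91 members (15.4%), beside 12.5% of all genes tested. They lay below in 3 members (Ndufb5, Ndufaf4 and Ndufaf5; 3.30%), beside 19.6% of all genes tested. After quantile normalization the higher count was 12 and the lower count 10, so these counts move with the scaling. The share over all genes tested was not computed at that scaling. The median log2 difference over the 91 was 0.05, and 67 of them had a positive one, beside 49.1% of all genes tested. That median turned to -0.0015 after quantile normalization, to -0.017 without mutant 2 and to -0.00084 without wild type 1, and was 0.15 without mutant 1 and 0.11 without wild type 2. The erythrocyte markers moved with the groups, and the muscle, fat and neuron markers mostly across them. The 10 Schwann cell markers all had a positive log2 difference. Of these, 5 separated the groups on the higher side, beside 12.5% of all genes tested. Among the 5, mutant 1 stood close to wild type 1 in Mbp (2133 against 2114 FPKM), Prx and Mal, and less close in Pmp22 and Egr2. The part of all these markers in the counts was not tested.

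**Figure D2:**
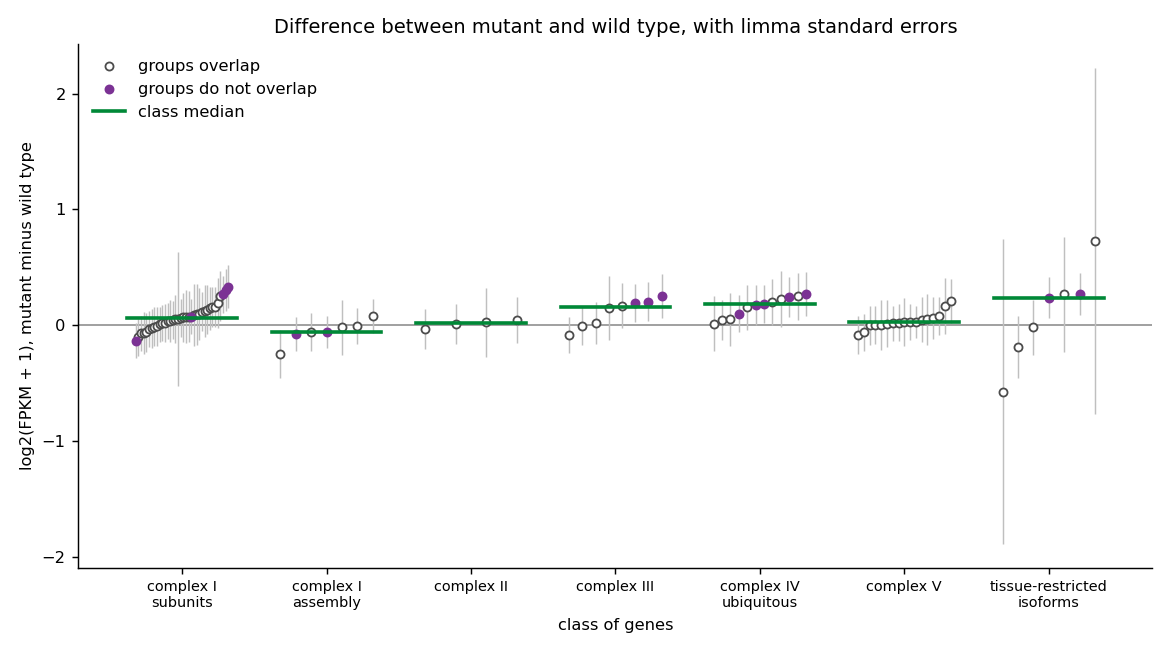
Difference between mutant and wild type in log2(FPKM + 1) for each member (points, n = 2 libraries per group), with the limma standard error (bars) and the median of each class (green). Filled points are the 17 genes whose groups do not overlap, and the bars of Cox6a2 (lowest point) and Cox8b (highest point) reach across 0.

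The muscle isoforms differed between libraries of the same group more than between the groups. Cox6a2 was at 8.45 FPKM in wild type 1, 54.0 FPKM in wild type 2, 3.59 FPKM in mutant 1 and 50.3 FPKM in mutant 2. Cox7a1 was at 48.3 and 88.4 FPKM in the wild types against 49.6 and 125 FPKM in the mutants. Cox8b was at 22.8 and 124 FPKM in the wild types against 19.4 and 398 FPKM in the mutants. In all 3, wild type 2 and mutant 2 were high and wild type 1 and mutant 1 low, and the groups overlapped. Wild type 2 exceeded wild type 1 by 6.39-fold in Cox6a2, 5.42-fold in Cox8b and 1.83-fold in Cox7a1, and mutant 2 exceeded mutant 1 by 14.0-fold, 20.5-fold and 2.52-fold. The ubiquitous counterparts varied less, by at most 1.58-fold between libraries. Cox6a1 was at 791 and 866 FPKM in the wild types against 832 and 1087 FPKM in the mutants, Cox8a at 1006 and 969 FPKM in the wild types against 1030 and 1212 FPKM in the mutants, and Cox7a2 at 1030 and 780 FPKM in the wild types against 1233 and 894 FPKM in the mutants. Cox7a2 was thus lower in the 2 libraries in which Cox7a1 was higher. That order within the groups was not particular to Cox7a2. Of the 12 ubiquitous complex IV genes 4 were lower in wild type 2 than 1 and in mutant 2 than 1 (Cox7a2, Cox6c, Cox7b and Cox7c), beside 25.8% of all genes tested. Another 5 were higher in both, Cox6a1 among them, beside 40.3%.

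**Figure D3:**
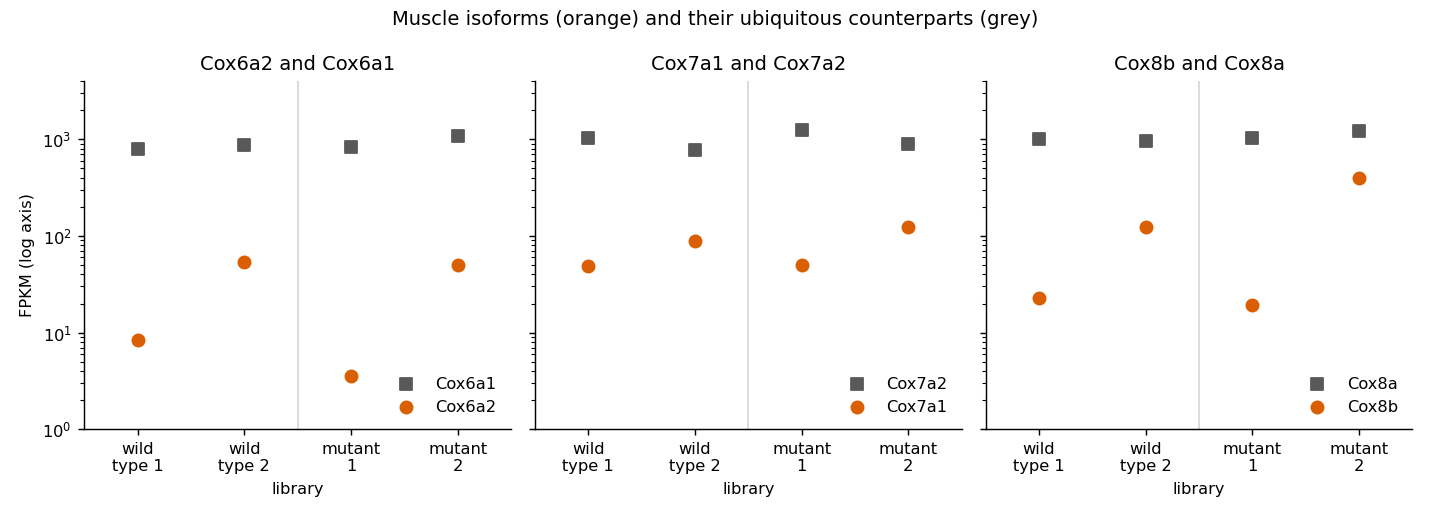
FPKM (log axis) of each muscle isoform (orange circles) and its ubiquitous counterpart (grey squares) in the 4 libraries. The orange points are high in wild type 2 and mutant 2 (54.0 and 50.3 FPKM for Cox6a2, 124 and 398 FPKM for Cox8b), while the grey points stay between 780 and 1233 FPKM.

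FPKM is per transcript length, so the share of the muscle form within each pair can be given. Cox6a2 made up 1.06% and 5.87% of the Cox6a pair in wild type and 0.430% and 4.42% in the mutants. Cox7a1 made up 4.48% and 10.2% of its pair in wild type and 3.87% and 12.3% in the mutants. Cox8b reached the highest share, with 2.22% and 11.3% in wild type and 1.85% and 24.7% in the mutants. By group the Cox8b share was 6.77% ± 6.43 in wild type and 13.3% ± 16.2 in the mutants (SD, n = 2 each), so the difference of 6.51 percentage points was close to the SD in wild type and under that in the mutants. For Cox6a2 the shares were 3.47% ± 3.41 and 2.43% ± 2.83, and for Cox7a1 7.33% ± 4.03 and 8.07% ± 5.94 (SD, n = 2 each).

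The 3 muscle isoforms were not alike in the 2 libraries where they were high. Cox6a2 was nearly level between wild type 2 and mutant 2 (ratio 0.931), Cox7a1 was 1.42-fold higher in mutant 2, and Cox8b was 3.22-fold higher in mutant 2. Markers of muscle and fat also differed between these 2 libraries, and in different directions. The muscle creatine kinase gene Ckm was at 232 FPKM in wild type 2 against 639 FPKM in mutant 2, and Myh4, the myosin of the fastest fibres, at 22.0 and 70.9 FPKM. Myoglobin (Mb) was at 111 and 31.8 FPKM, and Myh1 at 28.4 and 3.62 FPKM. The brown fat uncoupling protein gene Ucp1 was at 50.0 FPKM in wild type 2 against 83.8 FPKM in mutant 2, beside 3.12 and 4.32 FPKM in wild type 1 and mutant 1. Tnni3, the 1 heart marker in the matrix, was at 1.69 to 3.91 FPKM in all libraries. The part of muscle or brown fat in the isoform levels was not tested.

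Cox8b was the 1 member among the 150 genes of the authors' deposited table, in which 1.03% of the matrix's genes are listed. The authors' deposited table gives it a wild type level of 73.2 FPKM, a mutant level of 209 FPKM, a log2 fold change of 1.51 and q = 0.00742. That fold change is the log2 of the ratio of the group levels, and in the matrix the mutant mean was likewise 2.85-fold the wild type mean. The fit to the 4 libraries uses another measure, the difference between the group means of log2(FPKM + 1). In that fit the log2 difference of Cox8b was 0.73 (standard error 1.50, 95% interval -3.03 to 4.48, limma adjusted p = 0.994). Wild type 2 stood 6.38-fold above mutant 1. Without mutant 2 the log2 difference was -1.42, without wild type 1 it was -0.47, without wild type 2 it was 1.92 and without mutant 1 it was 2.87. Cox6a2 had a log2 difference of -0.57 (standard error 1.32) and Cox7a1 of 0.27 (0.50), and neither passed (limma adjusted p = 0.994 for each). Their signs also turned, Cox6a2 to 0.70 without wild type 2 and 1.17 without mutant 1, and Cox7a1 to -0.16 without wild type 1 and -0.39 without mutant 2.

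The profile of Cox6a2 over the 4 libraries was most like those of other muscle genes. Among 9481 genes that averaged 5 FPKM or more, the 5 nearest by Euclidean distance of the log2(FPKM + 1) deviations from each gene's own mean were Pgam2, Tcap, Myot, Rpl3l and Klhl41, at distances of 0.33 to 0.68. Pgam2, the muscle phosphoglycerate mutase gene, was at 9.63, 49.8, 4.24 and 64.1 FPKM in wild type 1, wild type 2, mutant 1 and mutant 2. Tcap, which encodes the titin cap protein of the sarcomere, was at 9.97, 91.9, 5.33 and 74.0 FPKM. Cox8b ranked 32 at a distance of 1.42, and Cox7a1 ranked 75 at 2.11. The likeness is a description over 4 libraries. Cox6a2 (7:128205435-128206387, minus strand), Cox7a1 (7:30184144-30186078, plus strand) and Cox8b (7:140898945-140900446, minus strand, in GENCODE M21 on GRCm38) are all on chromosome 7, which holds 9 of the 89 members with 1 position and 7.72% of tested genes.

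The other tissue-restricted isoforms had other profiles. Cox6b2, the form known from testis, was at 55.3 and 39.4 FPKM in the wild types against 50.1 and 33.3 FPKM in the mutants, so that it was higher in the 2 libraries low in Cox6a2. It made up 1.79% to 3.29% of the sum with Cox6b1. Cox4i2, a form known from lung and from hypoxia, was at 3.78 and 5.13 FPKM in the wild types against 5.83 and 5.23 FPKM in the mutants (log2 difference 0.27). Ndufa4l2, another gene induced by hypoxia, was at 4.05 and 2.95 FPKM in the wild types against 4.20 and 4.32 FPKM in the mutants (log2 difference 0.24). Both separated the groups by a gap smaller than the spread within wild type, and neither passed (limma adjusted p = 0.994). Cox7b2 was at 1.37 and 1.74 FPKM in the wild types against 1.08 and 2.05 FPKM in the mutants, at the edge of the minimum for testing, beside 666 to 991 FPKM for Cox7b. Cox8c was not analysed here.

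Between libraries the ubiquitous members stayed close. The median ratio of the highest to the lowest of all 4 libraries was 1.25 over the 84 members outside the tissue-restricted isoforms and 1.37 over all genes tested. Median levels of these sets were 355 and 9.52 FPKM, and the part of level in this ratio was not tested. Wild type 2 was at least 2-fold above wild type 1 in 2 of the 91 members (Cox6a2 and Cox8b), beside 2.54% of all genes tested, and mutant 2 was at least 2-fold above mutant 1 in 3 (with Cox7a1), beside 2.59%. It was at least 2-fold below in 0 members for wild type 2, beside 0.869%, and in 1 for mutant 2 (Ndufs5), beside 2.15%. Smaller shifts upward were common: wild type 2 was above wild type 1 in 67 members, beside 58.7% of all genes tested, and mutant 2 above mutant 1 in 71, beside 55.7%. In 60 of the 91 (65.9%) wild type 2 was above wild type 1 and mutant 2 above mutant 1, beside 40.3% of all genes tested, and in 13 (14.3%) both were below, beside 25.8%. The first set held 8 of 8 complex III genes and 13 of 17 Atp5 genes, and 5 of the 12 ubiquitous complex IV genes. These shifts went with higher summed muscle and pan-neuronal markers in wild type 2 and mutant 2, and their part was not tested.

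**Figure D4:**
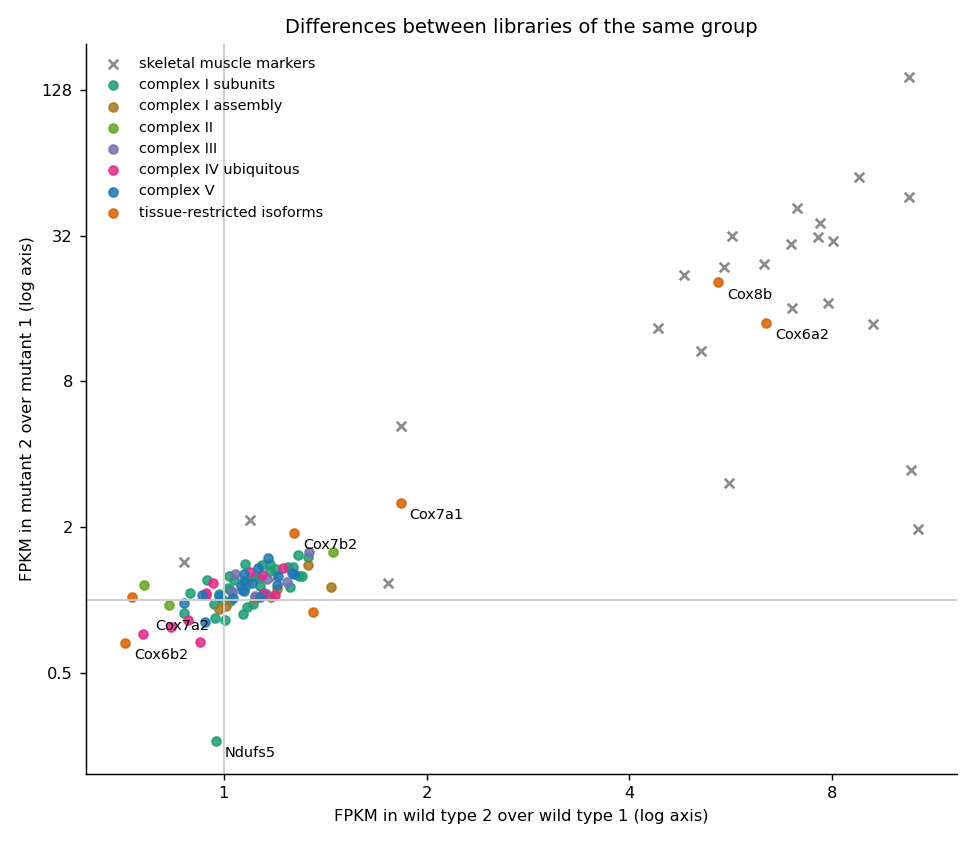
FPKM ratio of wild type 2 to wild type 1 (horizontal log axis) and of mutant 2 to mutant 1 (vertical log axis) for the 91 members, coloured by class, and for 25 skeletal muscle markers (crosses). Cox6a2 and Cox8b lie among most of the muscle markers, Cox7a1 closer to the ubiquitous genes, and Ndufs5 at 0.972 and 0.262.

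Ndufs5, an accessory subunit of complex I, was the exception among the ubiquitous members. It was at 28.1 and 27.3 FPKM in the wild types against 55.8 and 14.7 FPKM in the mutants, 3.81-fold higher in mutant 1 than in mutant 2. The mutants thus lay on either side of closely matched wild types, and the log2 difference of 0.06 (standard error 0.58) averages over values of 0.98 without mutant 2 and -0.88 without mutant 1.

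Other genes of the pathway, taken from lists of factors outside the rule, gave no call either. The list of 20 genes for the other complexes was mostly of assembly factors, but also held Usmg5 and Atpif1, a subunit and an inhibitor of ATP synthase. Of 18 complex IV assembly genes 1 was higher (Cox20) and 1 lower (Cox11) without overlap. Of the 20 for the other complexes 1 was higher (Bcs1l) and 2 were lower (Lyrm7 and Tmem70), beside 12.5% and 19.6% of all genes tested. Of 15 genes of pyruvate oxidation and the citric acid cycle 0 were higher and 2 lower (Ogdh and Suclg2). Of 13 regulators 0 were higher and 4 lower, Ppargc1a, Gabpb1, Tfam and Tfb2m. Ppargc1a, which encodes the coactivator PGC-1alpha of mitochondrial biogenesis, was at 3.60 and 3.19 FPKM in the wild types against 2.73 and 2.27 FPKM in the mutants (log2 difference -0.33, limma adjusted p = 0.994). Tfam, the packaging and transcription factor of mitochondrial DNA, was at 8.87 and 8.99 FPKM in the wild types against 8.33 and 8.52 FPKM in the mutants. A list of 5 electron carrier genes held Cyc1, which encodes a complex III subunit. The median log2 difference was between -0.05 and 0.03 in that list, in each list above and in the 9 energy shuttle genes. In the last list, Ckmt2, the mitochondrial creatine kinase of striated muscle, was at 1.64 and 9.26 FPKM in the wild types against 0.718 and 9.30 FPKM in the mutants, so that, as for Cox6a2, wild type 2 and mutant 2 were high. Slc25a4, the ADP/ATP carrier abundant in muscle, was at 681 and 858 FPKM in the wild types against 717 and 929 FPKM in the mutants.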

How the data were processed

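RNA from dorsal root ganglia was sequenced in 4 libraries, 2 wild type and 2 mutant. The authors deposited FPKM values for 14405 genes, and for 150 genes a list of group levels with log2 fold changes, p-values and q-values, per the file headers. Per the submitters' processing notes, the tools were Cufflinks 2.2.1, TopHat2 2.1.2 and CASAVA, and the build mm10. The sources used here do not give their settings, strandedness or scaling between libraries. Each matrix gene reached 1 FPKM in at least 1 library. Only 6 genes lay above 0 and under 0.05 FPKM in 2 or more libraries, too few to recover whole reads, so the depth is unknown and intervals for counting error cannot be computed. Reads of near-identical pseudogene copies may have been counted with, or split from, a parent gene.

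Here limma 3.58.1 in R 4.3.3 was fitted to log2(FPKM + 1), with a prior that follows mean expression, over the 14040 genes averaging 1 FPKM or more in a group. P-values were adjusted by Benjamini and Hochberg over all of them (threshold 0.05). Residual degrees of freedom were 2, and the prior added 3.44. The script was tested on simulated data. Alternatives were a pseudocount of 0.1 FPKM, no minimum or one of 5 FPKM, median-ratio and quantile scaling, a constant prior, a replicate block, and each library left out. The members and lists were chosen with earlier results of these data known. The rule for named genes took Prdm12, the tissue-restricted isoforms and their counterparts, 9 core subunits, the highest subunit of each complex, and the 4 largest moderated t in each direction. Genes named outside it, Ndufs5 among them, were chosen after their values were seen.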

Additional observations from a re-analysis of the deposited data

How the results depend on the processing

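Of the members, 0 passed the adjusted threshold in each of the 11 alternatives. All genes past it numbered 0, except 61 with a replicate block and 5 without wild type 1. Members at an unadjusted p under 0.05 numbered 0 in the main fit and in the alternatives that kept all 4 libraries, except the replicate block. Among all genes those settings had 400 to 625 at that limit, of 9772 to 14405 tested. The block had 1 member higher and 0 lower, beside 646 genes higher and 828 lower of 14040. The unadjusted counts with a library left out, which leave 1 library in a group, are not given. The block changed 1 call among the named genes, that of Prdm12 (limma adjusted p = 0.0250). The shared numbers are not a stated pairing. Over 14040 genes the deviations of wild type 2 and mutant 2 from their group means correlated at 0.48. With each library left out, the medians ran from -0.017 to 0.15 for all members, -0.016 to 0.12 for complex I subunits, -0.12 to 0.067 for complex I assembly, -0.11 to 0.12 for complex II, -0.024 to 0.25 for complex III, 0.11 to 0.18 for ubiquitous complex IV, -0.29 to 0.45 for tissue-restricted isoforms and -0.12 to 0.11 for complex V. After quantile normalization the median was 0.084 for complex IV and -0.0015 for all members. Chosen after seeing the data, wild type 1 and mutant 1 alone gave 0.12 for complex IV and -0.14 for tissue-restricted isoforms, values with no test. The counts without overlap were also recomputed after seeing the data. With 3 libraries, which separate more easily, they ran from 23 to 58 members higher and 7 to 33 lower. After median-ratio and quantile scaling 18 and 12 members were higher, and 5 and 10 were lower. The shares over all genes tested were not computed in these settings, so these counts have no background to be set beside. The pair shares, mutant minus wild type, ran from -3.45 to 1.37 percentage points for Cox6a2, -3.46 to 4.95 for Cox7a1 and -4.92 to 17.9 for Cox8b. Where a library left out turned a sign, the log2 difference ran from -2.31 to 1.17 for Cox6a2, -0.47 to 0.10 for Cox6b2, -0.39 to 0.93 for Cox7a1, -0.29 to 0.26 for Cox7b2, -1.42 to 2.87 for Cox8b, -0.17 to 0.27 for Cox4i1, -0.0039 to 0.46 for Cox7a2, -0.27 to 0.30 for Cox7b, -0.23 to 0.10 for Ndufs1, -0.11 to 0.38 for Ndufv1, -0.88 to 0.98 for Ndufs5, -0.17 to 0.10 for Sdha, -0.31 to 0.36 for Sdhb, -0.12 to 0.15 for Sdhd, -0.18 to 0.47 for Uqcrc1, -0.12 to 0.16 for Uqcrfs1, -0.079 to 0.075 for Uqcrq, -0.18 to 0.011 for Atp5a1, -0.13 to 0.23 for Atp5b, -0.13 to 0.23 for Atp5k and -0.10 to 0.18 for Ndufb4. Quantile normalization turned Cox4i1 (-0.060), Cox7b (-0.049), Sdhb (-0.0091), Atp5b (-0.051), Ndufb4 (-0.032), Sdhd (-0.037) and Atp5k (-0.028), and median-ratio scaling turned Uqcrq (0.012). The cause of these changes was not tested. The depth is unknown, so counting error could not be set beside any value.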
